A study of Mus musculus with 12 samples.

Results

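The genes described here encode ribosome biogenesis factors, the nucleolar proteins that make ribosomal RNA and assemble it into ribosomal subunits. They are 35 named genes, and 33 of them have an Affymetrix probeset of their own among the 22180 genes measured. Fbl, the methyltransferase of box C/D particles, and Tsr1, a factor of the small subunit, share their probesets with another gene and were not analysed here. Where a gene had several probesets, the one brightest on average was taken. The list was drawn up by function, with earlier results of these data known.

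The muscle was gastrocnemius, the large calf muscle, of FVB mice labelled male and aged 2 to 3 months. There were 4 groups of 3 arrays, each array a biological replicate per the labels: ERRα-null mice 2 h after an exhausting treadmill run, wild-type mice at the same time after such a run, sedentary ERRα-null mice and sedentary wild-type mice. ERRα-null mice lack the estrogen-related receptor alpha, a nuclear receptor best known for driving mitochondrial genes. The labels say no more of the null allele. Values are log2 expression values made by the authors with RMA, which puts all arrays on a common distribution, so that each difference is relative to the bulk of transcripts.

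Ribosome synthesis starts in the nucleolus, where RNA polymerase I transcribes the long precursor of the ribosomal RNAs. Small nucleolar ribonucleoproteins (snoRNPs) modify the precursor, the small subunit processome folds and cuts its 18S part, and other factors mature the 60S subunit around the 28S part. In skeletal muscle this machinery is known for its link to growth and hypertrophy, and the transcription factor MYC is a classical activator of its genes.

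The labels and tissue were checked first. The 8 skeletal muscle markers had a mean log2 value between 12.4 and 12.6 on every array. Esrra averaged 6.72 ± 0.14 in exercised and 6.71 ± 0.17 in sedentary ERRα-null muscle, against 7.50 ± 0.12 in exercised and 7.53 ± 0.11 in sedentary wild-type muscle (SD, n = 3 each). The mean of 6 heat shock genes, centred on each gene, lay between 0.28 and 0.88 on exercised ERRα-null arrays and between 1.17 and 1.42 on exercised wild-type arrays, against −1.05 to −0.67 on sedentary arrays. This is the order that the sample titles give, while the source name label gives another state for exercised wild-type and sedentary ERRα-null arrays. Exercised wild type replicate 3 and exercised ERRα-null replicates 2 and 3 had Xist values of 7.82 to 7.90, where the other 9 arrays had 3.66 to 4.30, a female profile against the male label. Markers of other tissues also varied, mainly between sedentary arrays. The mean of 5 fat markers ran from 6.22 to 7.09 on exercised arrays and from 5.77 to 9.30 on sedentary arrays. The mean of 4 B-cell markers ran from 5.56 to 6.57 on exercised arrays and from 6.01 to 8.68 on sedentary arrays. On exercised arrays it differed between genotypes without overlap, at 5.56 to 5.90 in ERRα-null and 6.23 to 6.57 in wild-type muscle. The mean of 7 liver markers ran from 5.94 to 8.05 on exercised arrays and from 5.73 to 10.3 on sedentary arrays. The main results on exercise are therefore also given without the 3 arrays of female profile and with scores of liver, fat and B-cell markers in the model.

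All 33 genes passed the filter on dim genes, with means over the arrays between 6.32 (Rrp1b) and 9.37 (Ncl) and a filter at 5.32. Each comparison was tested with limma over 13308 genes, and a gene was called changed at a Benjamini-Hochberg adjusted p under 0.05. A value after ± is the standard error from limma, or the SD where so marked. In bulk muscle, fewer cells of a type and less RNA per cell cannot be told apart.

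**Figure D1:**
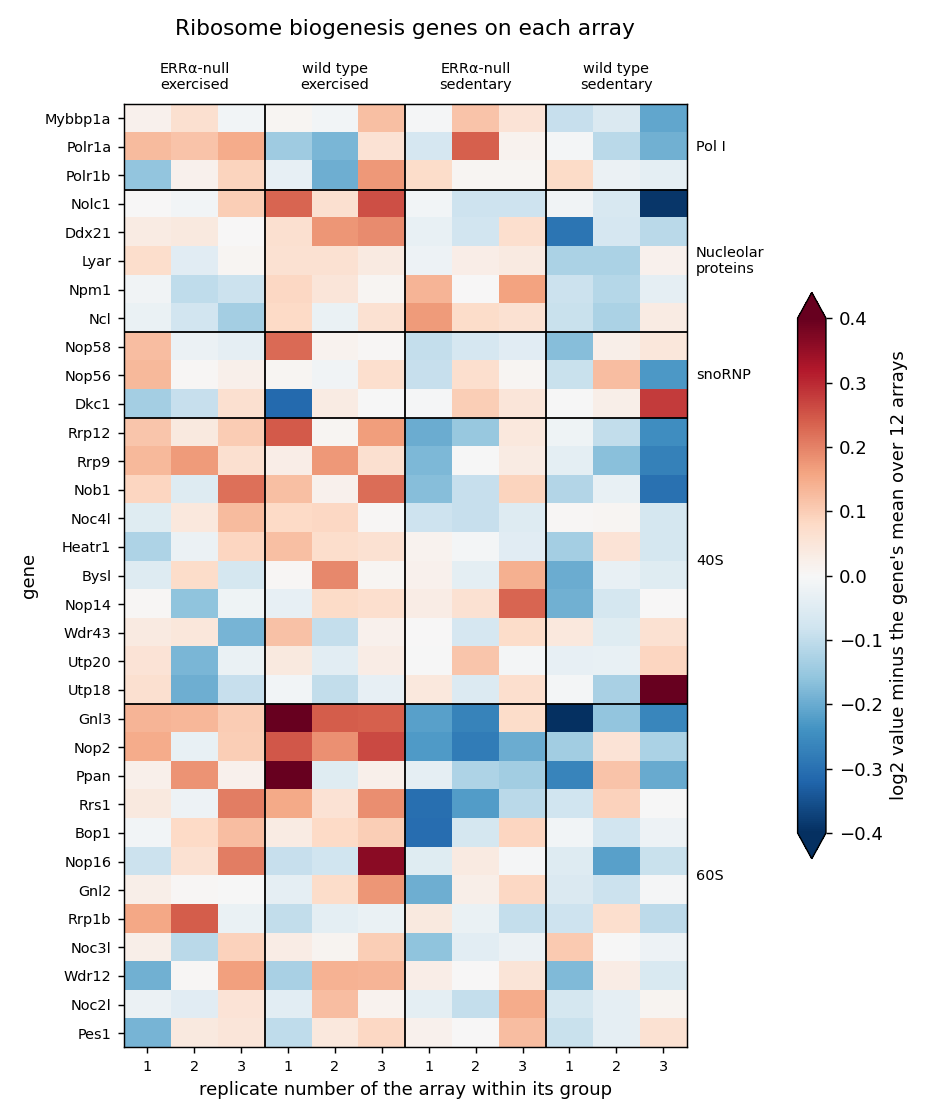
Each row is a gene, ordered by role and by its mean change with exercise, and each column is an array; the colour is the log2 value minus the gene's mean over the 12 arrays, and it saturates at 0.4 in either direction. Gnl3 and Nop2 of the 60S group are above their means on nearly every exercised array, whereas most other genes differ by little between the 4 groups.

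The response to exercise was small, and the 2 genes called in the average over genotypes were factors of the large subunit. Averaged over genotypes, Gnl3 and Nop2 rose after exercise and none of the 33 genes fell. Gnl3 encodes nucleostemin, a nucleolar GTPase that helps to process the precursor of the 60S subunit, and Nop2 encodes a methyltransferase of 28S ribosomal RNA. These were 2 of 33 genes called higher, where 3.14% of all genes tested were called higher and 3.43% lower. Over the 33 the median change was 0.06 log2, and 24 lay above 0 and 9 below, where 48% and 52% of all genes did. Counted at an unadjusted p under 0.05, 9 members were higher and 0 lower, where 9.57% of all genes were higher and 12.9% lower.

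Gnl3 had log2 values of 8.25, 8.25 and 8.22 in exercised ERRα-null muscle and 8.56, 8.36 and 8.36 in exercised wild-type muscle. In sedentary muscle it had 7.90, 7.85 and 8.19 (ERRα-null) and 7.66, 7.96 and 7.86 (wild type). Every exercised array was therefore above every sedentary array. Gnl3 was the 1 member so separated (3.03% of members), where 1.99% of all genes were, and 0 members were separated the other way, where 2.02% were. The averaged change was 0.43 ± 0.08 log2, or 1.35-fold (limma adjusted p = 0.00527).

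Nop2 had log2 values of 8.38, 8.21 and 8.33 in exercised ERRα-null muscle and 8.48, 8.42 and 8.50 in exercised wild-type muscle, against 8.01, 7.95 and 8.04 in sedentary ERRα-null and 8.09, 8.29 and 8.11 in sedentary wild-type muscle. The exercised arrays lay above the sedentary arrays within each genotype, but exercised ERRα-null replicate 2 lay below sedentary wild type replicate 2. The averaged change was 0.30 ± 0.06 log2, or 1.24-fold (limma adjusted p = 0.00656). Without the 3 arrays of female profile neither gene passed, at 0.45 for Gnl3 (adjusted p = 0.106) and 0.33 for Nop2 (adjusted p = 0.0782), and 172 of all genes were called in place of 874. With liver, fat and B-cell scores in the model Gnl3 passed and Nop2 did not (0.35, adjusted p = 0.207), and 131 of all genes were called.

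The promoters of these 2 genes are shown because they were the only members called, together with that of Utp18, which holds the same motif as Nop2 and was not called. The windows are from RefSeq on build GRCm38.p6 and run from 250 bases before to 50 bases after the start of the gene, on the strand of the gene. Gnl3 is at chr14:31019082-31019381 on the minus strand, Nop2 at chr6:125131633-125131932 on the plus strand and Utp18 at chr11:93885717-93886016 on the minus strand. Capitals mark the E-box CACGTG, the sequence that MYC and related factors bind.
Gnl3: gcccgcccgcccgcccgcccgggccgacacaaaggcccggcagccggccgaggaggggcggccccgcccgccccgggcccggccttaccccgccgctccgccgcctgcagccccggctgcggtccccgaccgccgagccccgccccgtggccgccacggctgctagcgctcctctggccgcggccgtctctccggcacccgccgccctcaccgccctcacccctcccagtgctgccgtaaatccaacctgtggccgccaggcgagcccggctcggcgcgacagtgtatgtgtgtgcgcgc
Nop2: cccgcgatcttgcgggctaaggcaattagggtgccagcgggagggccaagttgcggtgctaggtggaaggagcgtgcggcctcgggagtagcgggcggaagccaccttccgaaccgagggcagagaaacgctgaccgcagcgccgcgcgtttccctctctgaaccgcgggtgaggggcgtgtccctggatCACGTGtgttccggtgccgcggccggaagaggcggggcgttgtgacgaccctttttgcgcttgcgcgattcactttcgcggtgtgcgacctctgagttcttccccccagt
Utp18: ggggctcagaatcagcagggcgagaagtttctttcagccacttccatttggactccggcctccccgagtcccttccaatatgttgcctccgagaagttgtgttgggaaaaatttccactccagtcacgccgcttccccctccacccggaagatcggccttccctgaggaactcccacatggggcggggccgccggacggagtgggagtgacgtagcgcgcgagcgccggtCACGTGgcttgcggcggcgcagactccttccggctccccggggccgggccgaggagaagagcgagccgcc
The E-box lies 60 to 55 bases before the start of Nop2 and 20 to 15 bases before that of Utp18, and the Gnl3 window holds none. The Gnl3 window is 80.3% G and C, against 66.0% for Nop2 and 65.3% for Utp18. Of the 29 members with a window, 7 held the E-box (Mybbp1a, Nop2, Pes1, Tsr1, Utp18, Utp20 and Wdr43), or 24.1%, where 1204 of the 10426 tested genes with a window did. Of those 7 genes, 6 were measured and only Nop2 was called in any comparison. The nuclear receptor site AAGGTCA, the core of the sequence bound by ERRα and other nuclear receptors, was searched on both strands, the other strand as TGACCTT. It was in none of the 29 and in 403 of the 10426, and this says only that these letters are not in the window.

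In wild-type muscle, Gnl3 rose after exercise and no other member was called. Its change was 0.60 ± 0.11 log2, or 1.52-fold (limma adjusted p = 0.00930), and this was 1 of 33 genes where 2.22% of all genes were called higher and 1.21% lower. Without the arrays of female profile Gnl3 was at 0.63 and did not pass (adjusted p = 0.0642). Over the 33 genes the median change was 0.12 log2, against −0.01 over all genes tested, and 28 lay above 0 and 5 below, where 47.7% and 52.3% of all genes did. At an unadjusted p under 0.05 there were 8 higher members and 0 lower, where 7.51% of all genes were higher and 8.61% lower. In 13 of the 33 (39.4%) every exercised wild-type array was above every sedentary one, where 10% of all genes were so, and in 0 members every exercised array was below, where 11% were. Without the arrays of female profile the median was 0.10, with 24 genes above 0. With liver, fat and B-cell scores in the model it was 0.08, with 21 genes above 0.

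All 5 nucleolar proteins lay above 0 in wild-type muscle. Ddx21, an RNA helicase that acts in transcription by RNA polymerase I and in processing, had 8.32, 8.43 and 8.45 in exercised and 7.96, 8.19 and 8.15 in sedentary wild-type muscle. The groups did not overlap, and the difference of 0.30 ± 0.08 did not pass (adjusted p = 0.0630). It passed when the lowest 60% of genes were left out (adjusted p = 0.0480). Its second, dimmer probeset differed by 0.04 in wild-type and 0.26 in ERRα-null muscle, where the probeset used differed by 0.30 and 0.04. Nolc1, a chaperone of snoRNPs, had 7.99, 7.82 and 8.02 in exercised and 7.74, 7.69 and 7.37 in sedentary wild-type muscle, without overlap (0.34 ± 0.10, adjusted p = 0.0984). The other nucleolar proteins were nearer to 0, with Lyar at 0.13, Npm1 at 0.13 and Ncl at 0.10, none of which passed.

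Of the 12 factors of the large subunit, 11 lay above 0 in wild-type muscle, with a median of 0.12. Next to Gnl3, Nop2 was at 0.30 ± 0.08 (adjusted p = 0.0586), and it passed when the lowest 60% of genes were left out (adjusted p = 0.0445) or the arrays were quantile normalized again (adjusted p = 0.0476). Ppan, a factor of 60S assembly, was at 0.26 ± 0.14, a value that rests on exercised replicate 1, at 7.24, since replicates 2 and 3 were at 6.73 and 6.80 within the sedentary range of 6.52 to 6.89. Its second probeset differed by 0.04. Pes1, Bop1 and Wdr12, which form the PeBoW complex of 60S maturation, were at 0.03, 0.11 and 0.12, and none passed.

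Among the 10 factors of the small subunit, 8 lay above 0 in wild-type muscle, with a median of 0.13. Nob1, the endonuclease that cuts the end of 18S ribosomal RNA, was at 0.27 ± 0.10. Rrp12, a factor of subunit export, was at 0.26 ± 0.09, and Rrp9, a protein of the U3 snoRNP, at 0.25 ± 0.09. In these 3 genes the exercised and sedentary wild-type arrays did not overlap, and none passed (adjusted p from 0.173 to 0.212). Rrp12 averaged over genotypes was at 0.22 ± 0.07 (adjusted p = 0.0638), and it passed without sedentary ERRα-null replicate 3 (0.26, adjusted p = 0.0452), without exercised wild type replicate 2 (0.26, adjusted p = 0.0444) or with the arrays quantile normalized again (0.24, adjusted p = 0.0367). Utp18 of the small subunit processome had the lowest value of the role, −0.15 ± 0.13, and its sedentary wild-type arrays ranged from 6.40 to 6.99.

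The polymerase I and snoRNP genes differed little. Polr1a and Polr1b, the large catalytic subunits of RNA polymerase I, were at 0.01 ± 0.10 and −0.02 ± 0.10 in wild-type muscle, and Mybbp1a, a nucleolar protein of ribosomal RNA synthesis, at 0.16 ± 0.07 (adjusted p = 0.280). Nop56 and Nop58, the core proteins of box C/D snoRNPs, were at 0.09 and 0.11. Dkc1, the pseudouridine synthase of box H/ACA snoRNPs and an X-linked gene, was at −0.19 ± 0.11. None of these passed.

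**Figure D2:**
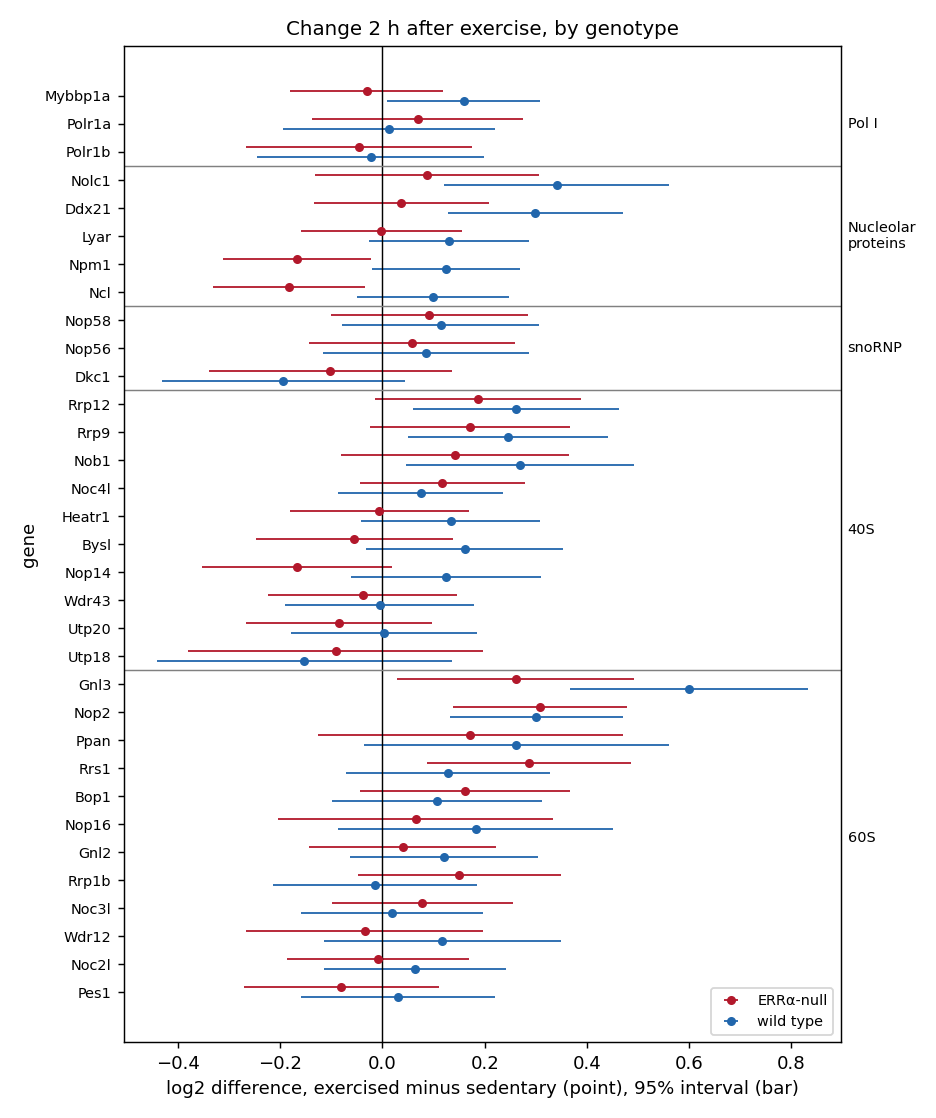
Points are log2 differences of exercised minus sedentary muscle for each gene in ERRα-null mice (red, upper) and wild-type mice (blue, lower), and bars are 95% intervals from the model. Gnl3 in wild-type muscle lies farthest to the right at 0.60, and Ncl, Npm1 and Nop14 lie right of 0 in wild type and left of 0 in ERRα-null muscle.

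In ERRα-null muscle no member was called after exercise. In limma the counts were 0 of 33 higher and 0 lower, where 0.639% of all genes were called, 0.383% higher and 0.255% lower. At an unadjusted p under 0.05 there were 3 higher members, where 5.79% of all genes were, and 2 lower, where 7.3% were. The median change was 0.04 log2, against −0.01 over all genes, and 18 of the 33 lay above 0 and 15 below, where 47.2% and 52.8% of all genes did. In 7 members (21.2%) every exercised array was above every sedentary one, where 8.99% of all genes were so, and in 3 (Ncl, Npm1 and Nop14) every exercised array was below, where 10% were. The median was 0.007 without sedentary ERRα-null replicate 1, and 0.07 without sedentary replicate 2 and 0.06 without sedentary replicate 3. It was 0.05, with 21 genes above 0, when the female-profile arrays were left out, so that 1 exercised array of ERRα-null muscle remained. With liver, fat and B-cell scores in the model it was −0.01, with 14 genes above 0. All 95% intervals of the 33 genes lay within −0.38 and 0.49 log2.

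The largest value in ERRα-null muscle was that of Nop2, at 0.31 ± 0.08 (adjusted p = 0.119), next to 0.30 in wild type. Gnl3 was at 0.26 ± 0.11 (adjusted p = 0.321) and Rrs1, which in yeast helps to bring the 5S particle into the 60S precursor, at 0.29 ± 0.09 (adjusted p = 0.207). Rrs1 had 6.49, 6.43 and 6.65 in exercised and 6.14, 6.22 and 6.34 in sedentary ERRα-null muscle, without overlap. A second probeset of Rrs1, of nearly the same mean level, differed by 0.01 in ERRα-null and 0.27 in wild-type muscle, where the probeset used differed by 0.29 and 0.13, so that the 2 probesets disagree on the genotype with the larger change. Nolc1 was at 0.09, Ddx21 at 0.04, Rrp12 at 0.19, Rrp9 at 0.17 and Nob1 at 0.14, and none passed.

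Ncl and Npm1 had values below 0 in ERRα-null muscle. Ncl encodes nucleolin, which binds ribosomal RNA precursors, and had 9.34, 9.29 and 9.23 in exercised and 9.54, 9.44 and 9.43 in sedentary ERRα-null muscle (−0.18 ± 0.07, adjusted p = 0.276). Npm1 encodes nucleophosmin, a nucleolar chaperone, and had 8.92, 8.83 and 8.85 in exercised and 9.07, 8.94 and 9.10 in sedentary ERRα-null muscle (−0.17 ± 0.07, adjusted p = 0.303). In both, the exercised arrays lay below the sedentary ones without overlap.

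The difference between genotypes in the response to exercise did not pass for any member. In limma the interaction, the change in ERRα-null minus the change in wild type, was called for 0 of 33 genes, where 0.00751% of all genes were called, which is 1 of 13308. Counted at an unadjusted p under 0.05, 5 members had a negative interaction (Npm1, Ncl, Nop14, Ddx21 and Gnl3), where 3.2% of all genes were, and 0 a positive one, where 1.92% were. The median was −0.08 log2 against 0.00 over all genes, and 24 of 33 lay below 0, where 50.6% of all genes did. With the female-profile arrays left out the median was −0.08 with 22 below 0, and with liver, fat and B-cell scores −0.07 with 25 below 0. Across all settings it ran from −0.12 to −0.03. The heat shock genes had negative interactions too, which in limma did not pass, from −0.25 for Hspb1 (adjusted p = 0.999) to −1.75 for Hspa1a (adjusted p = 0.308). Their part in the values of the members was not tested. Npm1 had the smallest p, at −0.29 ± 0.09 (adjusted p = 0.843), followed by Ncl at −0.28 ± 0.10 (adjusted p = 0.919) and Nop14, a protein of the small subunit processome, at −0.29 ± 0.12 (adjusted p = 0.950). Gnl3 was at −0.34 ± 0.15, with a 95% interval from −0.67 to −0.01 (adjusted p = 0.959).

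The mean over the 33 genes, each centred on its own mean, was also taken on each array. It was 0.01, 0.01 and 0.04 in exercised ERRα-null muscle and −0.06, −0.03 and 0.03 in sedentary ERRα-null muscle. It was 0.06, 0.03 and 0.10 in exercised wild-type muscle and −0.09, −0.04 and −0.06 in sedentary wild-type muscle. The wild-type groups did not overlap and the ERRα-null groups did. For the 12 factors of the large subunit, Gnl3 and Nop2 among them, the exercised arrays lay between 0.004 and 0.14 and the sedentary arrays between −0.12 and −0.0003. They did not overlap in either genotype, but in ERRα-null muscle exercised replicate 1 (0.004) and sedentary replicate 3 (−0.0003) nearly met. The mean without Gnl3 and Nop2 was not examined.

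**Figure D3:**
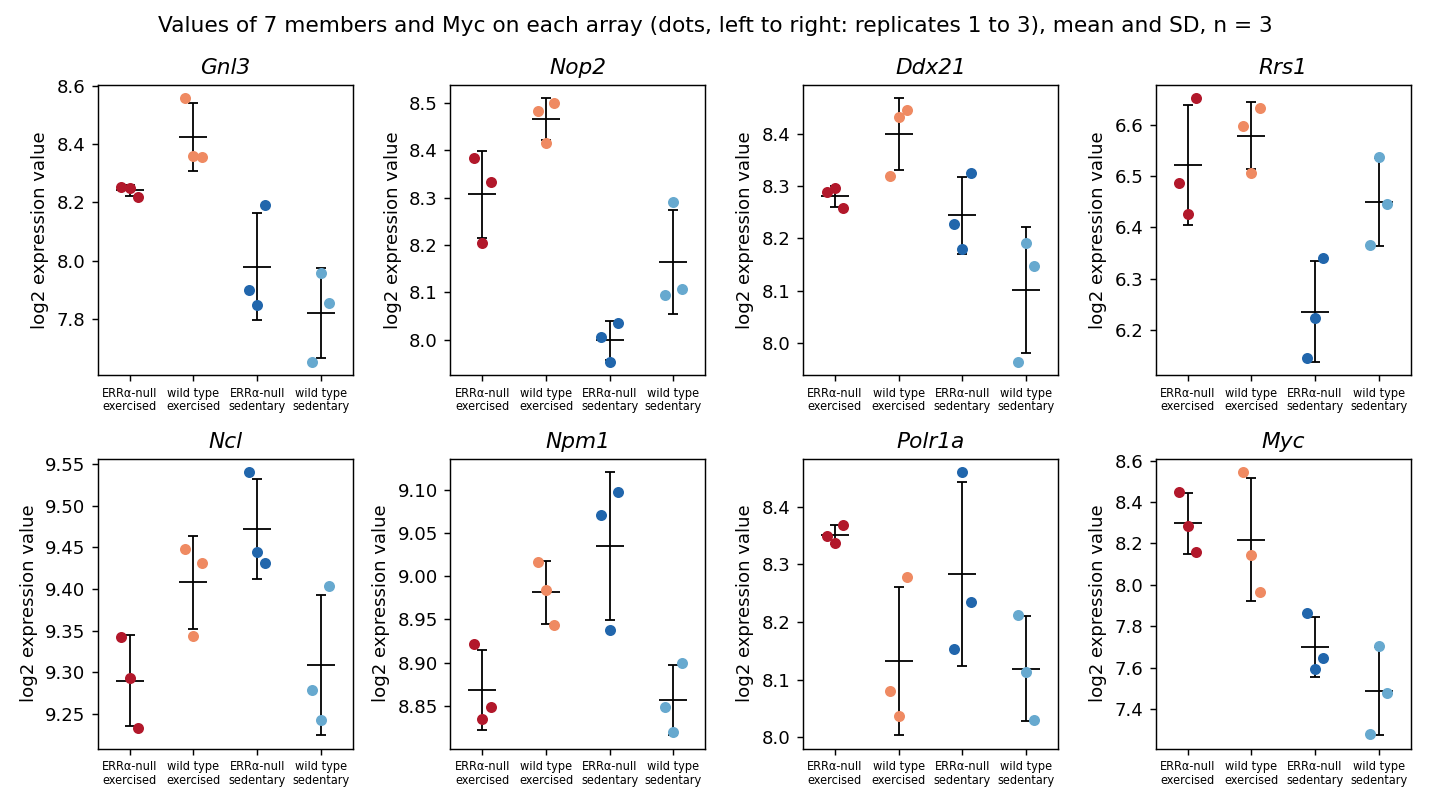
Log2 values of Gnl3, Nop2, Ddx21, Rrs1, Ncl, Npm1, Polr1a and the regulator Myc on each array (dots), with the mean and SD of each group (n = 3); the vertical axes start above 0 and differ between genes. Gnl3 and Myc separate exercised from sedentary arrays, while Npm1 is higher in exercised than in sedentary wild-type muscle and lower in exercised than in sedentary ERRα-null muscle.

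Loss of ERRα was not followed by a called change of any member. For genotype in sedentary mice limma called 0 of 33 higher and 0 lower, where 0.0827% of all genes were called, 0.0526% higher and 0.0301% lower. At an unadjusted p under 0.05 there were 4 higher members, where 4.07% of all genes were, and 1 lower, where 4.16% were. The median was 0.04 log2 against 0.00 over all genes, and 24 lay above 0 and 9 below, where 49.6% and 50.4% of all genes did. In 5 members every ERRα-null array was above every wild-type array, where 6.91% of all genes were so, and in 3 every ERRα-null array was below, where 6.53% were. All 95% intervals lay within −0.41 and 0.39 log2, which is 0.751-fold to 1.31-fold.

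At rest Npm1, Mybbp1a and Ncl had the smallest p of the 33. Npm1 had the values 9.07, 8.94 and 9.10 in sedentary ERRα-null and 8.85, 8.82 and 8.90 in sedentary wild-type muscle (0.18 ± 0.07, adjusted p = 0.476). Ncl had 9.54, 9.44 and 9.43 in ERRα-null and 9.28, 9.24 and 9.40 in wild-type muscle (0.16 ± 0.07, adjusted p = 0.551). Mybbp1a had 9.06, 9.18 and 9.12 in ERRα-null and 8.97, 9.01 and 8.86 in wild-type muscle (0.17 ± 0.07, adjusted p = 0.525). In these 3 genes the genotypes did not overlap. With the mean of its 2 probesets Npm1 was at 0.12 (adjusted p = 0.807). Rrs1 and Nop2 lay the other way, at −0.21 ± 0.09 (adjusted p = 0.571) and −0.16 ± 0.08 (adjusted p = 0.630). The second probeset of Rrs1 differed between genotypes by −0.09 at rest and −0.35 after exercise, where the probeset used differed by −0.21 and −0.06. The 2 probesets therefore disagree on the state with the larger difference. All 5 nucleolar proteins lay above 0, between 0.09 and 0.18.

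After exercise most members lay on the other side of 0. For genotype after exercise limma called 0 of 33 higher and 0 lower, where 0.376% of all genes were called, 0.0902% higher and 0.286% lower. At an unadjusted p under 0.05 there was 1 higher member, where 3.75% of all genes were, and 0 lower, where 6.64% were. The median was −0.05 log2 against 0.00 over all genes, and 6 of 33 lay above 0 and 27 below, where 50.4% and 49.6% of all genes did. Without the 3 arrays of female profile, all of them exercised, the median was −0.02, with 15 genes above 0 and 18 below. In 5 members (Nop2, Ncl, Gnl3, Npm1 and Ddx21) every ERRα-null array was below every wild-type array, where 9.31% of all genes were so, and in 1 (Polr1a) every one was above, where 6.64% were. The second, dimmer probeset of Ddx21 lay the other way after exercise, at 0.19 against −0.12 for the probeset used. Of the 33 genes, 19 were above 0 at rest and below 0 after exercise, where 20.8% of all genes were, and 1 was below 0 at rest and above 0 after exercise, where 21.6% were. With the female-profile arrays left out these counts were 14, against 20.7% of all genes, and 5, against 22.7%. After exercise the heat shock genes Hsp90aa1 (−0.81, adjusted p = 0.0358) and Hsph1 (−0.72, adjusted p = 0.0398) were called lower in ERRα-null muscle. The B-cell marker Ighm was called lower too (−2.58, limma adjusted p = 0.0227), while Cd79a (0.09) and Cd79b (−0.15) were not called. At rest Ighm was at −1.40 (limma adjusted p = 0.253). The part of B cells in the genotype values of the members was not tested separately.

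Polr1a had 8.35, 8.34 and 8.37 in exercised ERRα-null and 8.08, 8.04 and 8.28 in exercised wild-type muscle (0.22 ± 0.10, adjusted p = 0.447). At rest it had 8.15, 8.46 and 8.24 in ERRα-null and 8.21, 8.11 and 8.03 in wild-type muscle, with overlap. Nop2 was at −0.16 ± 0.08 after exercise (adjusted p = 0.531), and at −0.07 (adjusted p = 0.956) when the female-profile arrays were left out. Rrp1b, a nucleolar protein of 60S maturation, was at 0.18 ± 0.09 (adjusted p = 0.564), with 6.47, 6.56 and 6.29 in ERRα-null and 6.22, 6.28 and 6.29 in wild-type muscle. All 95% intervals after exercise lay within −0.41 and 0.43 log2, the bounds of Gnl3 and Polr1a.

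Averaged over both states, limma called 0 of 33 for genotype, where 1.43% of all genes were called, 0.428% higher and 0.999% lower. At an unadjusted p under 0.05 there was 1 higher member, Polr1a (0.19 ± 0.07, adjusted p = 0.233), where 5.18% of all genes were higher. There was 1 lower member, Nop2 (−0.16 ± 0.06, adjusted p = 0.220), where 7.19% of all genes were lower. Rrs1 was next, at −0.14 ± 0.06 (adjusted p = 0.425). The median was 0.00, with 16 genes above and 17 below 0, where 50.2% and 49.8% of all genes lay.

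**Figure D4:**
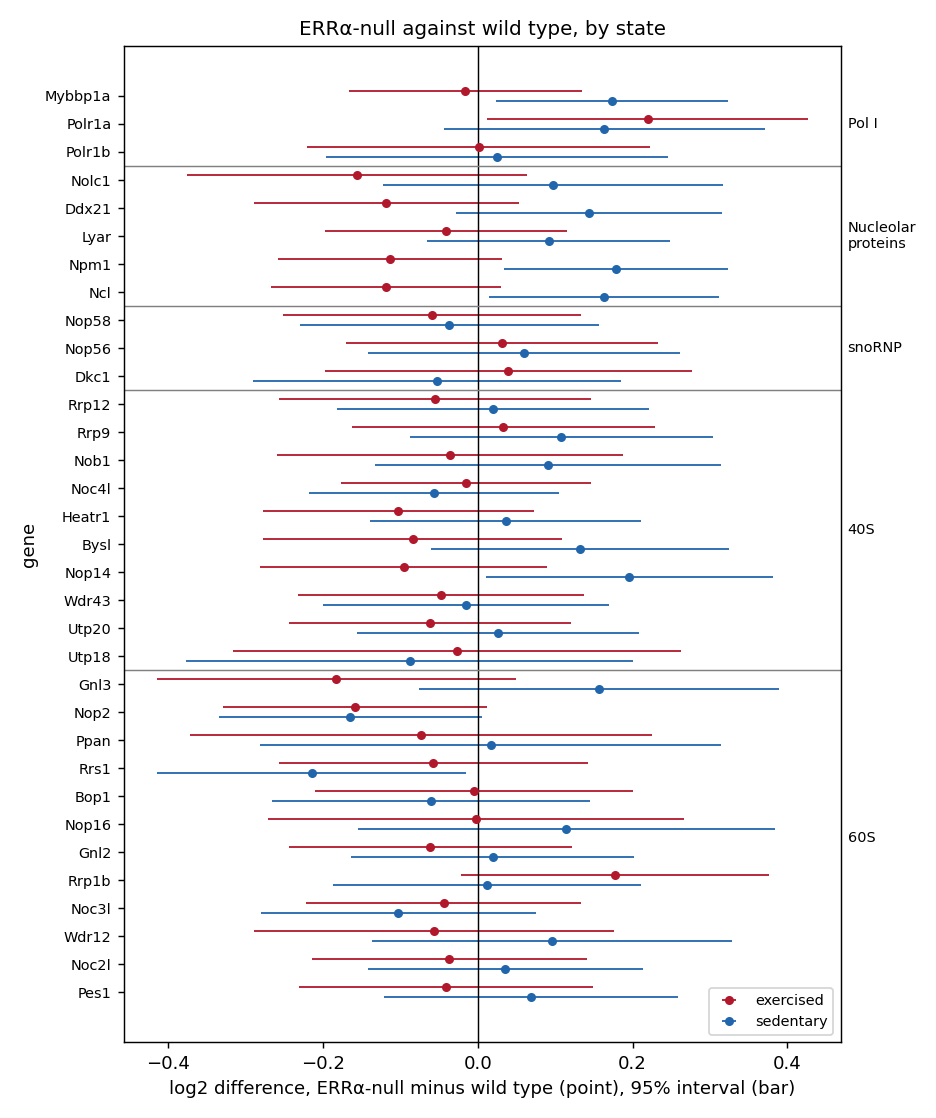
Points are log2 differences of ERRα-null minus wild-type muscle for each gene in exercised mice (red, upper) and sedentary mice (blue, lower), and bars are 95% intervals from the model. The nucleolar proteins lie right of 0 at rest and left of 0 after exercise, and every interval stays within −0.41 and 0.43.

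Other genes of ribosome biogenesis were examined as a wider list of 114 genes, of which 107 were tested. Averaged over genotypes, 1 of them (Nle1) rose after exercise and 2 (Taf1b and Rcl1) fell. Nle1, which acts late in 60S maturation, had 7.12, 7.03 and 7.07 in exercised ERRα-null and 7.33, 7.39 and 7.27 in exercised wild-type muscle. In sedentary muscle it had 6.74, 6.71 and 6.68 (ERRα-null) and 6.83, 6.62 and 6.81 (wild type). The exercised and sedentary arrays did not overlap (0.47 ± 0.06, adjusted p = 0.000478). Taf1b, a subunit of the factor that brings RNA polymerase I to its promoter, had 6.69, 6.57 and 6.63 in exercised ERRα-null and 6.29, 6.40 and 6.36 in exercised wild-type muscle, against 6.86, 6.91 and 6.82 in sedentary ERRα-null and 6.71, 6.70 and 6.89 in sedentary wild-type muscle. Its exercised arrays all lay below its sedentary arrays, and it fell by 0.32 on the log2 scale (± 0.06, adjusted p = 0.00569). Rcl1, a protein of 18S processing, had 6.36, 6.26 and 6.28 in exercised ERRα-null and 6.47, 6.32 and 6.28 in exercised wild-type muscle, against 6.43, 6.57 and 6.42 in sedentary ERRα-null and 6.73, 6.71 and 6.77 in sedentary wild-type muscle. The exercised arrays lay below the sedentary ones within each genotype, and it fell by 0.28 (± 0.06, adjusted p = 0.0149). With liver, fat and B-cell scores in the model none of the 3 passed, at 0.47 for Nle1 (adjusted p = 0.123), −0.38 for Taf1b (adjusted p = 0.194) and −0.17 for Rcl1 (adjusted p = 0.551). Without the arrays of female profile Taf1b (−0.30, adjusted p = 0.149) and Rcl1 (−0.23, adjusted p = 0.269) did not pass and Nle1 did.

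By role the wider list lay near 0 in the averaged response. The median was 0.01 over 37 genes of the large subunit, −0.02 over 36 of the small subunit, 0.06 over 10 of snoRNP assembly, −0.01 over 14 of RNA polymerase I and its factors, and −0.01 over 10 of the RNA exosome, which trims ribosomal RNA precursors. The genes next in p within these roles did not pass. Among them were Tbl3 (0.21, adjusted p = 0.0624) and Ddx52 (−0.31, adjusted p = 0.0864) of the small subunit. Rpf1 (−0.19, adjusted p = 0.113) and Ddx10 (−0.16, adjusted p = 0.182) act on the large subunit. Twistnb (−0.17, adjusted p = 0.109) and Znrd1 (0.22, adjusted p = 0.199) are subunits of RNA polymerase I. Nhp2 (adjusted p = 0.220), Naf1 (adjusted p = 0.262) and Nop10 (adjusted p = 0.375) act in snoRNP assembly, and Exosc9 (adjusted p = 0.327), Exosc7 (adjusted p = 0.471) and Exosc3 (adjusted p = 0.619) are exosome subunits.

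In wild-type muscle Nle1 (0.58), Taf1b (−0.41) and Rcl1 (−0.38) were called too, with adjusted p of 0.00164, 0.0163 and 0.0282. With liver, fat and B-cell scores in the model none of the 3 passed in wild type, at 0.57 for Nle1 (adjusted p = 0.104), −0.47 for Taf1b (adjusted p = 0.164) and −0.26 for Rcl1 (adjusted p = 0.442). Without the arrays of female profile Nle1 passed at 0.61 (adjusted p = 0.0199), and Taf1b (adjusted p = 0.0926) and Rcl1 (adjusted p = 0.165) did not. The wild-type call of Taf1b was also lost without exercised replicate 1 (−0.38, adjusted p = 0.0644) or sedentary replicate 3 (−0.35, adjusted p = 0.0724). That of Rcl1 was also lost without exercised replicate 2 or 3 or without any 1 sedentary wild-type replicate (adjusted p from 0.0646 to 0.103). In ERRα-null muscle they were at 0.36, −0.23 and −0.18 and did not pass (adjusted p = 0.0730, 0.238 and 0.390). None of the 107 was called for genotype at rest, genotype after exercise, genotype averaged over states or the interaction in limma. For all snoRNP assembly genes tested the interaction lay below 0, where 50.6% of all genes did. It ran from −0.41 (Naf1, limma adjusted p = 0.948) to −0.02 (Znhit3). Apart from Naf1, Ruvbl1 (−0.36) and Snu13 (−0.15), the values were near 0, between −0.10 and −0.02. In each of the other roles the interactions lay on both sides of 0.

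Of 12 regulators tested, Myc was the 1 that rose with exercise. It had 8.45, 8.28 and 8.16 in exercised ERRα-null and 8.55, 8.14 and 7.97 in exercised wild-type muscle, against 7.86, 7.59 and 7.64 in sedentary ERRα-null and 7.28, 7.71 and 7.47 in sedentary wild-type muscle. Every exercised array was above every sedentary one (0.66 ± 0.11 log2, adjusted p = 0.00344). The change was 0.73 ± 0.15 in wild-type (adjusted p = 0.0228) and 0.60 ± 0.15 in ERRα-null muscle (adjusted p = 0.122). The wild-type call was lost without exercised replicate 1 (0.57, adjusted p = 0.0706), sedentary replicate 1 (0.63, adjusted p = 0.0678) or sedentary replicate 3 (0.73, adjusted p = 0.0757), and with only the 6 wild-type arrays (adjusted p = 0.0919). The averaged call passed in all 21 other settings, with values from 0.58 to 1.20. Averaged over genotypes, Nr4a1, an orphan nuclear receptor, was at 0.47 (adjusted p = 0.317) and Mycn at 0.13 (adjusted p = 0.392). Nr4a1 was at 1.04 in wild-type (limma adjusted p = 0.178) and −0.10 in ERRα-null muscle (limma adjusted p = 0.939). Its interaction was −1.14 (limma adjusted p = 0.960).

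Some markers of other cell types moved with exercise and others did not. The centred mean of 4 satellite cell markers lay between 0.04 and 0.22 on exercised arrays and between −0.37 and 0.06 on sedentary arrays. Of these, Myod1 was at 0.62 averaged over genotypes (adjusted p = 0.0617). Pax7 was at −0.04 in wild-type and 0.22 in ERRα-null muscle, and Myf5 at 0.22 and 0.14. Neither passed in either genotype. The mean of 5 proliferation markers ran from 5.31 to 5.61 on exercised and from 5.19 to 5.89 on sedentary arrays. Of these, Aurka, a mitotic kinase, rose with exercise averaged over genotypes (0.41 ± 0.07, adjusted p = 0.00367), and every exercised array was above every sedentary one. It rose in wild-type muscle (0.49 ± 0.09, adjusted p = 0.0149) and was at 0.32 ± 0.09 in ERRα-null muscle (adjusted p = 0.169). Mki67, the other proliferation marker that passed the filter on dim genes, lay the other way. It was at −0.15 in wild-type and −0.22 in ERRα-null muscle and passed in neither. The mean of 5 macrophage markers ran from 6.70 to 7.08 on exercised and from 6.85 to 7.34 on sedentary arrays. Of these, Csf1r fell by 0.42 averaged over genotypes (adjusted p = 0.0420). Adgre1, Mrc1, Cd163 and Cd68 were at −0.13, −0.10, 0.11 and −0.16 in wild-type muscle. In ERRα-null muscle they were at −0.12, 0.04, −0.20 and 0.12, and none passed in either genotype. The mean of 4 neutrophil markers was 5.80 on exercised wild type replicate 2 and at most 4.31 on all other arrays. The part of these cells in the values of Gnl3, Nop2 and Myc was not tested.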

How the data were processed

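Total RNA of gastrocnemius was measured on 12 arrays of the type Mouse Gene 2.0 ST. The authors deposited log2 values, which come from RMA, and the submitters' processing notes name Transcriptome Analysis Console and Affymetrix Expression Console as software. For these, versions and build were not given in the sources used here. Arrays have no read depth, and their number limits the precision.

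Groups and replicate numbers come from the sample titles. The platform table pairs 23521 of 41345 probesets with 1 symbol, 1814 with several and 16010 with none. Only the first were named, with symbols updated through RefSeq (GRCm38.p6), and the probeset with the highest mean stood for the gene. The 40% of the 22180 genes with the lowest mean (under 5.32) were not tested, which left 13308.

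The 4 group means were fitted to all 12 arrays (8 residual degrees of freedom) with limma 3.58.1 in R 4.3.3, eBayes with an intensity trend and Benjamini-Hochberg adjustment over the 13308 genes, all two-sided, in 7 comparisons. The model was tested on simulated data. Alternatives changed the filter, probeset rule, normalization, trend, arrays, block or covariates. Leaving out the female-profile arrays, and the block on the exercised arrays, were chosen after seeing the data. The members, lists and named-gene rule were chosen with earlier results of these data known. By that rule any member may be named, called members are given on every array, the 3 members with the smallest p are named where fewer were called, and 3 genes per role are named of the wider list, which has 114 genes and 13 regulators.

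No label says that replicate numbers pair the arrays. Among exercised arrays, same-numbered ERRα-null and wild-type arrays deviated together from their group means, with correlations of 0.312, 0.207 and 0.174 over genes, and a block was therefore also fitted there.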

Additional observations from a re-analysis of the deposited data

Results flagged for a closer look

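For Npm1 and Ncl the arrays of the groups lay in opposite order without overlap. Npm1 was higher in exercised than in sedentary wild-type muscle on every array and lower in exercised than in sedentary ERRα-null muscle on every array. It was also above wild type in every sedentary ERRα-null array and below it in every exercised one. The exercise pattern in this direction held for 1 of 33 members and 23 of 13308 genes (0.173%), and in either direction for 1 member and 37 genes (0.278%). The genotype pattern in this direction held for 2 of 33 members and 41 genes (0.308%), and in either direction for 2 members and 65 genes (0.488%). The interaction of Npm1 was −0.292 log2 (limma adjusted p = 0.843). A second probeset of Npm1, with a mean of 4.85, differed by −0.01 in wild-type and −0.22 in ERRα-null muscle after exercise. Ncl was above wild type in every sedentary ERRα-null array and below it in every exercised one, with an interaction of −0.282 (limma adjusted p = 0.919). Neither interaction passed in any of the 21 other settings, with adjusted p of at least 0.606 for Npm1 and 0.665 for Ncl. Without the arrays of female profile the interaction was −0.26 for Npm1 and −0.22 for Ncl, and with liver, fat and B-cell scores in the model −0.30 for Npm1 and −0.29 for Ncl.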

How the results depend on the processing

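In the 5 comparisons with a reported count of 0 members, all 109 combinations with another setting also gave 0, which at this floor says little of stability. In the 2 comparisons with calls the count stayed within 1.5 times the reported one in 38 of 43 combinations. For exercise in wild type it was 1 as reported, 3 when the lowest 60% of genes were left out, 2 with arrays quantile normalized again and 0 without the 3 arrays of female profile. For exercise averaged over genotypes it was 2 as reported, 1 with liver, fat and B-cell scores as covariates and 0 without the arrays of female profile. Leaving out 1 array at a time gave 1 for exercise in wild type, 2 to 3 for the averaged response and 0 for the other 5 comparisons. With 3 arrays a group the standard errors of members were 0.07 to 0.14 log2 in comparisons of 2 groups. Over all genes the number called in these 2 comparisons was lowest with the covariates, at 163 against 457 for wild type and 131 against 874 averaged. Elsewhere that number ran from 10 to 113 for exercise in ERRα-null (85 as reported), from 1 to 19 for genotype at rest (11), from 2 to 105 for genotype after exercise (50), from 6 to 251 for genotype averaged (190) and from 0 to 6 for the interaction (1). The cause of the lost calls was not tested, although leaving out arrays also lowers their number.

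With all 12 arrays, the replicate block gave 1, 0 and 2 members for exercise in wild type, exercise in ERRα-null and the averaged response, and 0 for the other 4 comparisons. On the 6 exercised arrays the block gave 0 members for genotype after exercise. The block changed no call of a named gene. Elsewhere no label says what same-numbered arrays share. Their correlations were −0.278 to 0.347 between the sedentary genotypes. Between exercised and sedentary arrays they were 0.063 to 0.269 in wild-type and −0.145 to 0.041 in ERRα-null muscle.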
